A study of Mus musculus with 17 samples.

Results

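The genes described here make cholesterol and fatty acids in the mouse cell line 32D, which resembles myeloblasts and depends on the cytokine IL-3. They were taken as a named list, made by what their products do but with earlier results of these data known. The list held 33 genes. Of these, 32 were measured among 20227 genes in all. No probe set was assigned to Acat2, which makes the first intermediate of the pathway, under that symbol alone, so Acat2 was not analysed here. The 32 genes fell by role into 7 of the mevalonate and prenyl steps, 11 of the steps between squalene and cholesterol, 6 regulators and transport proteins, and 8 of fatty acid synthesis and desaturation.

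RNA of 17 cultures was hybridised to Affymetrix Mouse Exon arrays, whose probe sets read single exons, and the values are log2 signals. There were 9 lines with ITD mutants of human FLT3, in which an internal tandem duplication activates this receptor kinase, as found in acute myeloid leukaemia. Each came from a different mutant on 1 array, and they are called ITD lines 1 to 9. The other groups had 2 arrays each: cells with human wild-type FLT3 (WT) given FLT3 ligand at 20 ng/mL, WT cells, cells with the empty pLXRN retroviral vector, and parental 32D cells. The transduced lines were populations of many clones, and the vector and WT lines had been selected with G418. The ITD lines grew without IL-3 and the control cells had mouse IL-3 (1 ng/mL), so mutant receptor and absence of IL-3 cannot be told apart in any comparison of ITD lines with controls. The protocol does not state outright whether IL-3 was kept with the ligand. The ligand group's label could also mean cells transduced with ligand, but its meaning was taken from the growth protocol. The titles call the arrays of a control pair biological replicates. Whether these came from separately made lines is not stated, so p-values may rest on a spread between cultures or on a technical one.

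Cholesterol is built from acetyl-CoA through mevalonate, the isoprenoid diphosphates and squalene. SREBP transcription factors drive most of these genes and those of fatty acid synthesis. SCAP carries the SREBP precursors from the endoplasmic reticulum to the Golgi, where they are cut and released, and INSIG proteins hold SCAP back when sterols are plentiful. In blood-forming cells the pathway serves membrane growth, and its isoprenoid branch supplies the lipid anchors of small GTPases such as RAS.

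Promoters of 4 members are shown because Hmgcs1, Idi1, Insig1 and Fasn carry the opposed differences described further on. RefSeq (GRCm38.p6) held a window of 250 bases before the transcription start for 26 of the 33 members. For Fasn the window lies inside the annotated gene, whose 5' end is at position 120825166, so it precedes a start within the gene. Capitals mark matches, on either strand, to the sterol regulatory element core TCACCCCAC, the CCAAT box and the E-box CACGTG. A pair of CCAAT boxes on opposite strands overlap in Fasn and are run together there. The windows lie at chr13:119690101-119690350 on the plus strand (Hmgcs1), chr5:28071162-28071411 on the plus strand (Insig1), chr13:8885356-8885605 on the plus strand (Idi1) and chr11:120824548-120824797 on the minus strand (Fasn).
Hmgcs1: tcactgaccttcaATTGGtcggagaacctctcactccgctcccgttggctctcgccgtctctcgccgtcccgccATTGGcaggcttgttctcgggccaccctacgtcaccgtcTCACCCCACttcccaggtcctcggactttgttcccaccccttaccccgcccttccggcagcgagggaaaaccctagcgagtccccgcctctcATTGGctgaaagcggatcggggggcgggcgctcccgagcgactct
Insig1: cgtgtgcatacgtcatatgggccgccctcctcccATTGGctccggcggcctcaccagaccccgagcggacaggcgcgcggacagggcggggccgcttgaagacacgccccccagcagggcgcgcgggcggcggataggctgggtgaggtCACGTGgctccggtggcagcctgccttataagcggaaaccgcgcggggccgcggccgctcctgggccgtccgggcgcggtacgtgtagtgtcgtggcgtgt
Idi1: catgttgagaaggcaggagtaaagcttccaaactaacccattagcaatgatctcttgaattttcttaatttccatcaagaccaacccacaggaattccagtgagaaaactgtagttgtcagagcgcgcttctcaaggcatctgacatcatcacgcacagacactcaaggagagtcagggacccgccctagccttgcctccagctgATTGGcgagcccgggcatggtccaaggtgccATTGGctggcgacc
Fasn: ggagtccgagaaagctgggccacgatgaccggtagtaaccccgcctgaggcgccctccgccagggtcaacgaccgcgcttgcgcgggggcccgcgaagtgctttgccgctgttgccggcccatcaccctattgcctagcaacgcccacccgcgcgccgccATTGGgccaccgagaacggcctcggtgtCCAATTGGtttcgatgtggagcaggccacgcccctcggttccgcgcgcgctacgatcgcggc

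The sterol element core was found in 1 of the 26 members, Hmgcs1, and in 0.496% of all 32851 windows. With any base in the middle (TCACNCCAC) it was again found in 1 member and in 1.05% of windows. The CCAAT box, which binds NF-Y, was found in 20 of 26 members and in 33.8% of all windows. The E-box was found in 5 members (Dhcr7, Hsd17b7, Insig1, Sc5d and Scap) and in 6.02% of windows. Hmgcs1 and Idi1, which differed in opposite directions in the ITD lines, both held CCAAT boxes, 3 and 2 of them. These matches describe letters in a window and are not measured binding.

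Cell identity was checked on marker genes. Of 8 markers of myeloblast-like progenitors 7 were measured, and 6 of them, such as Mpo, Prtn3 and Ctsg, lay above the median gene in every group. Kit was the exception. No measured T cell, B cell or adipocyte marker lay above the median gene. Of 3 measured hepatocyte markers 1 lay above it in ITD lines (Alb, mean 7.02), 1 in WT cells with ligand (Apoa1, 6.96) and 1 in parental cells (Apoa1, 6.85). The summed log2 signal of 9 mature neutrophil markers was 70.9 to 82.0 in ITD arrays, 81.8 to 82.7 in WT cells with ligand, 84.0 to 84.9 in WT, 87.1 to 87.4 in vector and 88.8 to 89.5 in parental cells. That of 8 monocyte and macrophage markers was 49.0 to 55.3 in ITD arrays, 61.8 to 62.1 with ligand, 59.8 to 60.7 in WT, 63.2 to 63.3 in vector and 56.2 in both parental arrays. Both sums reached their lowest values in ITD lines, where the neutrophil sum overlapped that with ligand. Of these markers Camp, Ngp, Cxcr2, Mmp8, Ctss and Mrc1 did not have their lowest group mean in ITD lines, and the others did. Progenitor markers summed to 69.4 to 72.6 in ITD arrays, 71.3 to 71.9 with ligand and 69.7 to 70.2 in WT. In vector cells they summed to 74.2 to 74.5 and in parental cells to 76.0 to 76.6. The part of all these markers in the results was not tested. Flt3, whose probe sets read the transgene in part, averaged 7.16 in ITD lines, 6.89 with ligand, 6.76 in WT, 5.19 in vector and 5.25 in parental cells. In such bulk RNA, fewer cells of a type and less RNA per cell cannot be told apart.

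**Figure D1:**
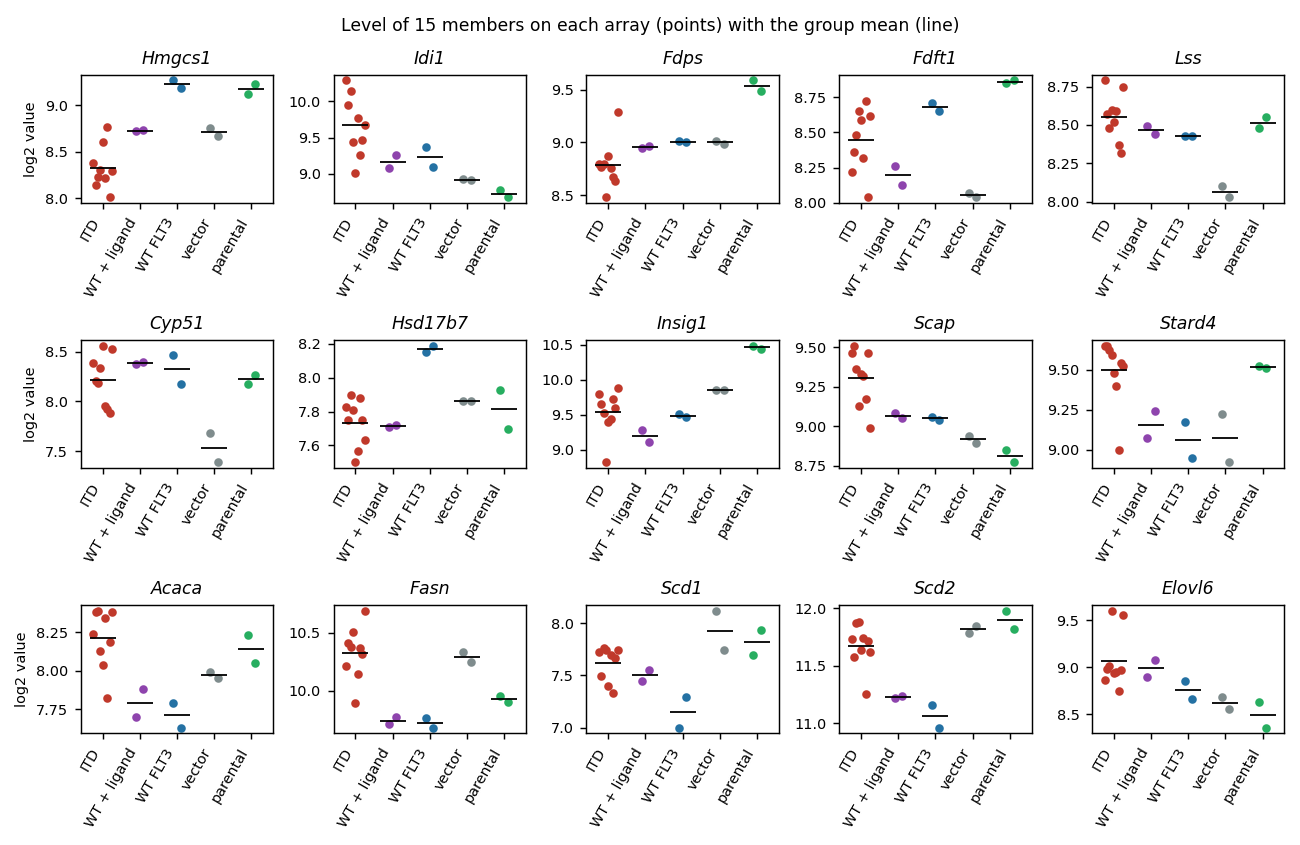
Log2 signal of members on every array (points), by group from left to right, with the group mean as a line. Hmgcs1 lay lower and Idi1 higher in most ITD lines than in parental, vector and WT cells, and no member separated the ITD lines from all 6 of those arrays.

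Compared with the mean of the parental, vector and WT groups, the ITD lines had 7 members higher and 4 lower, of 32. Hmgcs1, the synthase that precedes mevalonate, differed by -0.71 ± 0.10 and Idi1, the isomerase of isopentenyl diphosphate, by 0.71 ± 0.16 (log2, ± SE). The sterol-sensing genes split too, with Insig1 lower and Scap higher, while the called fatty acid genes (Acaca, Fasn and Elovl6) were all higher. A call needed an adjusted p under 0.05 in limma (Benjamini-Hochberg, over every gene tested). Calls made up 19.4% of all genes (11.2% higher, 8.15% lower), and those on the members 34.4%. The median difference was 0.04 over the members and -0.01 over all genes. In no member did the 9 ITD arrays lie clear of all 6 control arrays, which they did in 2.37% of all genes. The SE of this contrast comes from the spread within groups and leaves out how far the 3 control lines differ from each other. With the 12 lines as units in place of the 17 arrays, Hmgcs1 was the 1 member called (adjusted p = 0.0313). Leaving out 1 array left 5 to 11 members called, with 5 without vector replicate 2 or WT replicate 2, 6 without parental replicate 2 or ITD line 6, and 7 without parental replicate 1, vector replicate 1 or ITD line 1, 2 or 5. Of the 17 single omissions, Lss lost its call in 15, Stard4 in 14, Hsd17b7 in 13, Acaca in 9, Insig1 in 8 and Elovl6 in 3, and the other 5 called members in 0.

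In the mevalonate arm, 1 of 7 measured members was called higher and 2 lower (42.9% of the list, against 19.4% of all genes). Hmgcs1 read 8.01 at the lowest, 8.29 at the median and 8.77 at the highest in ITD lines, 8.72 and 8.73 in WT cells with ligand, 9.27 and 9.19 in WT, 8.76 and 8.67 in vector, and 9.12 and 9.23 in parental cells. All but 1 of the ITD arrays lay below all 6 control arrays. The fold was 1.64 lower (adjusted p = 8.67e-05), and the call held without each control line in turn. All 14 probe sets of Hmgcs1 were lower on average in ITD lines, 3 of them with no overlap of arrays. Idi1 read 9.01, 9.68 and 10.29 (lowest, median, highest) in ITD lines, 9.08 and 9.26 with ligand, 9.37 and 9.10 in WT, 8.93 and 8.91 in vector, and 8.78 and 8.68 in parental cells. In 7 of 9 lines it was above every control array. The fold was 1.63 higher (adjusted p = 0.00575), and all 15 of its probe sets were higher on average. This call was kept without each control line but not with the 12 lines as units (adjusted p = 0.13).

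Fdps, which joins isoprenoid units to farnesyl diphosphate, read 8.48, 8.77 and 9.29 in ITD lines, 8.95 and 8.97 with ligand, 9.01 and 9.00 in WT, 9.01 and 8.99 in vector, and 9.59 and 9.49 in parental cells. The parental arrays stood highest, and 8 of 9 ITD lines lay below all 6 controls. The difference was -0.40 ± 0.09 (adjusted p = 0.00625), with 19 of 22 probe sets lower, and it was not called without the parental line (adjusted p = 0.191). The kinases Mvk and Pmvk, the decarboxylase Mvd and the geranylgeranyl synthase Ggps1 were not called, at -0.16 (Mvd) to 0.19 (Pmvk). Mvd was called lower without the vector line (adjusted p = 0.0478) and Ggps1 higher without WT (adjusted p = 0.0315). Neither was called with the 12 lines as units (adjusted p = 0.575 and 0.534).

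Of the 11 genes between squalene and cholesterol, 1 was called higher and 1 lower. These calls are 18.2% of the list, near the 19.4% of all genes. Of the 11 differences 3 were above 0, with a median of -0.09. Lss, which closes the sterol rings to lanosterol, read 8.32, 8.57 and 8.79 in ITD lines, 8.49 and 8.44 with ligand, 8.43 and 8.43 in WT, 8.10 and 8.03 in vector, and 8.48 and 8.55 in parental cells. Only the vector arrays stood clearly lower. The difference was 0.22 ± 0.07 (adjusted p = 0.0451), and without the vector line it was not called (adjusted p = 0.59). Hsd17b7, a reductase of the later steps, read 7.50, 7.75 and 7.90 in ITD lines, 7.71 and 7.72 with ligand, 8.15 and 8.19 in WT, 7.86 and 7.86 in vector, and 7.93 and 7.70 in parental cells. The WT arrays alone stood apart. The difference was -0.21 ± 0.07 (adjusted p = 0.0457) and was not called without WT (adjusted p = 0.414).

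Squalene synthase Fdft1 read 8.04, 8.48 and 8.72 in ITD lines, 8.26 and 8.13 with ligand, 8.71 and 8.65 in WT, 8.07 and 8.04 in vector, and 8.85 and 8.87 in parental cells. Its ITD values spanned those of the vector and WT arrays. The lanosterol demethylase Cyp51 read 7.88, 8.21 and 8.56 in ITD lines, 8.38 and 8.40 with ligand, 8.47 and 8.18 in WT, 7.68 and 7.39 in vector, and 8.18 and 8.27 in parental cells. Here only the vector cells stood low. Neither gene was called against the mean of the controls, and nor were Sqle, Tm7sf2, Msmo1, Nsdhl, Ebp, Sc5d and Dhcr7, at -0.29 (Sqle, which oxidises squalene) to 0.17 (Tm7sf2, a sterol reductase). All 14 probe sets of Sqle were lower on average in ITD lines, although the gene was not called (adjusted p = 0.0791). Sqle was called lower without ITD line 9, its highest (-0.38, adjusted p = 0.00025), without the vector line (adjusted p = 0.0158), with the median of probe sets (adjusted p = 0.0372) and after quantile normalisation (adjusted p = 0.0338), but not with the 12 lines as units (adjusted p = 0.458). Dhcr7 was called lower without WT (-0.47, adjusted p = 0.00778) and after quantile normalisation (adjusted p = 0.0495). It was not called with the 12 lines as units (adjusted p = 0.546), and its difference changed sign in 1 setting.

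Of the 6 regulators and transport genes, 2 were called higher and 1 lower (50% of the list, against 19.4% of all genes). Insig1, itself a target of SREBP, read 8.82, 9.60 and 9.89 in ITD lines, 9.28 and 9.11 with ligand, 9.51 and 9.47 in WT, 9.86 and 9.85 in vector, and 10.49 and 10.44 in parental cells. The parental arrays stood highest and the ITD lines overlapped both other controls. The difference was -0.40 ± 0.12 (adjusted p = 0.0323), with 9 of 10 probe sets lower, and it was not called without the parental line (adjusted p = 0.578), without the vector line (adjusted p = 0.0516) or with the median of probe sets (adjusted p = 0.214). Scap read 8.99, 9.33 and 9.51 in ITD lines, 9.08 and 9.05 with ligand, 9.06 and 9.04 in WT, 8.94 and 8.89 in vector, and 8.85 and 8.77 in parental cells. In 8 of 9 lines it was above all 6 controls. The difference was 0.38 ± 0.08 (adjusted p = 0.00249), all 32 probe sets were higher on average, and the call held without each control line but not with the 12 lines as units (adjusted p = 0.109).

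Stard4, which carries cholesterol between membranes, read 9.00, 9.54 and 9.65 in ITD lines, 9.07 and 9.24 with ligand, 9.17 and 8.95 in WT, 9.22 and 8.92 in vector, and 9.52 and 9.51 in parental cells. The parental arrays were as high as the median ITD line. The difference was 0.28 ± 0.09 (adjusted p = 0.0422), and it was not called without the vector line (adjusted p = 0.228) or without WT (adjusted p = 0.192). Srebf1, Srebf2 and Insig2 were not called, at -0.03 (Srebf2) to 0.13 (Srebf1).

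Among the 8 fatty acid genes, 3 were called higher and 0 lower (37.5% of the list, against 19.4% of all genes), and 7 differences were above 0. Acaca, acetyl-CoA carboxylase, which commits acetyl-CoA to fatty acids, read 7.82, 8.24 and 8.39 in ITD lines, 7.70 and 7.88 with ligand, 7.79 and 7.63 in WT, 7.99 and 7.95 in vector, and 8.23 and 8.05 in parental cells. Fasn, the synthase that builds palmitate, read 9.89, 10.37 and 10.68 in ITD lines, 9.71 and 9.77 with ligand, 9.76 and 9.68 in WT, 10.33 and 10.25 in vector, and 9.95 and 9.90 in parental cells. For both, the WT arrays were low and ITD lines overlapped 1 or more control lines, with 5 of 9 above all of them. Acaca differed by 0.27 ± 0.09 (adjusted p = 0.0368) and Fasn by 0.35 ± 0.09 (adjusted p = 0.0149), and neither was called without WT (adjusted p = 0.293 and 0.164). Acaca was not called without the vector line either (adjusted p = 0.0708), nor Fasn without the parental line (adjusted p = 0.0554). Of the probe sets, 92 of 100 for Acaca and 54 of 56 for Fasn were higher on average in ITD lines.

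Elovl6, which lengthens palmitate, read 8.75, 8.97 and 9.60 in ITD lines, 8.90 and 9.08 with ligand, 8.85 and 8.66 in WT, 8.68 and 8.56 in vector, and 8.63 and 8.36 in parental cells. In 8 of 9 lines it was above all 6 controls, and all 10 probe sets were higher on average. The difference was 0.44 ± 0.12 (adjusted p = 0.0174), not called without the parental line (adjusted p = 0.0828). Acly, Fads1 and Fads2 were not called, at 0.12 (Acly) to 0.17 (Fads2). Without the parental line Acly and Fads2 were called higher (adjusted p = 0.047 and 0.0195). With the 12 lines as units neither was called (adjusted p = 0.637 and 0.726). Scd1 and Scd2, the desaturases that make oleate, were not called here, at -0.02 and 0.07. Scd2 read 11.25, 11.72 and 11.88 in ITD lines, 11.22 and 11.24 with ligand, 11.16 and 10.96 in WT, 11.79 and 11.85 in vector, and 11.98 and 11.82 in parental cells. Scd1 read 7.33, 7.70 and 7.76 in ITD lines, 7.45 and 7.55 with ligand, 7.0 and 7.29 in WT, 8.12 and 7.74 in vector, and 7.70 and 7.94 in parental cells. Both were lowest in WT. Scd1 rests on 5 of its 13 probe sets, the rest being dim, and how far probes of these close relatives cross-hybridise was not tested.

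**Figure D2:**
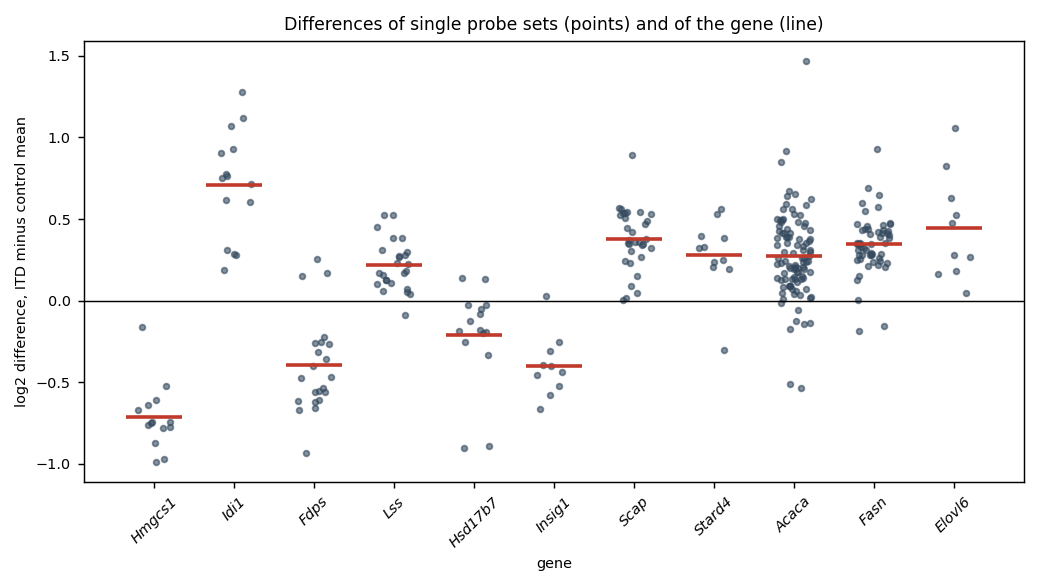
Log2 difference, ITD lines minus the control mean, of each used probe set (points) and of the gene (line), for the 11 members called. Points of Hmgcs1 all lie below 0 and those of Idi1, Scap and Elovl6 all above it. The other called members (Fdps, Lss, Hsd17b7, Insig1, Stard4, Acaca and Fasn) have points on both sides.

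Set against each control line on its own, the ITD lines gave different lists. No member was called in the same direction against WT, vector and parental cells, where 0.391% of all genes were called higher and 0.771% lower in all 3. Against WT, 5 members were higher and 2 lower, with 7.71% of all genes called (3.27% higher, 4.44% lower). The higher ones were all fatty acid genes: Fads2, a desaturase of polyunsaturated fatty acids, at 0.67 ± 0.16 (adjusted p = 0.0179), Scd2 at 0.61 ± 0.12 (adjusted p = 0.00444), Fasn at 0.60 ± 0.14 (adjusted p = 0.013), Acaca at 0.51 ± 0.13 (adjusted p = 0.025) and Scd1 at 0.47 ± 0.13 (adjusted p = 0.0409). All 8 fatty acid differences were above 0, with a median of 0.49, against -0.04 over all genes. Hmgcs1 was lower at -0.90 ± 0.14 and Hsd17b7 at -0.43 ± 0.10. Without the filter on dim probe sets Scd1 was not called (adjusted p = 0.889). Without WT replicate 1 or 2, 2 and 1 members were called.

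Against the vector cells, 6 members were higher and 0 lower, with 14% of all genes called (8.82% higher, 5.21% lower). These were Idi1 at 0.75 ± 0.24, Cyp51 at 0.68 ± 0.17, Lss at 0.49 ± 0.11, Stard4 at 0.43 ± 0.14, Scap at 0.39 ± 0.11 and the citrate lyase Acly at 0.31 ± 0.10. Hmgcs1 was not called (-0.39 ± 0.14, adjusted p = 0.0873). Without either vector array 0 members were called, and 3 were called without either parental, WT or ligand array or ITD line 1, 2, 3 or 6. Against parental cells, 3 members were higher and 9 lower, with 17% of all genes called (10.3% higher, 6.72% lower). Insig1 differed by -0.93 ± 0.18, Hmgcs1 by -0.85 ± 0.14, Dhcr7, the reductase of the last step, by -0.77 ± 0.15, Fdps by -0.76 ± 0.14 and Sqle by -0.68 ± 0.16. Also lower were Nsdhl, Mvd, Fdft1 and Srebf2, the SREBP that favours sterol genes (-0.58 to -0.28). Idi1 at 0.94 ± 0.24, Elovl6 at 0.57 ± 0.18 and Scap at 0.49 ± 0.11 were higher. Without either parental array 4 members were called.

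**Figure D3:**
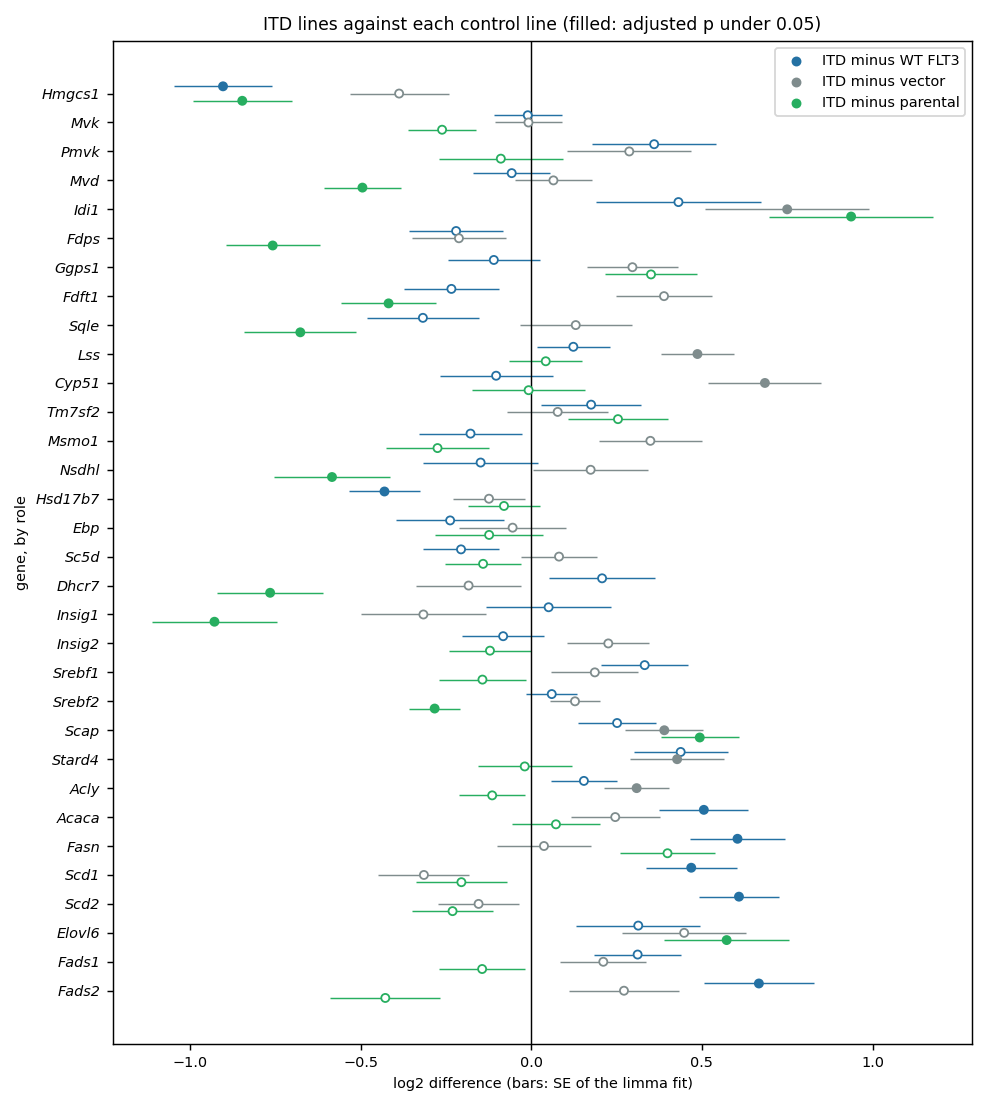
Log2 difference of each member, ITD lines minus WT, vector and parental cells, with SE bars and filled points where called. Hmgcs1 was called lower against WT and parental cells, Idi1 and Scap higher against vector and parental cells, and the fatty acid genes higher mainly against WT.

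Compared with WT cells given ligand, the ITD lines had 3 members higher and 0 lower, with 5.8% of all genes called (1.72% higher, 4.08% lower). Fasn differed by 0.58 ± 0.14, Scd2 by 0.44 ± 0.12 and Srebf2 by 0.28 ± 0.07. All 8 fatty acid differences were above 0, with a median of 0.30. Hmgcs1 and Idi1 were not called in this comparison. Without either ligand array 0 members were called, without either vector array or ITD line 1 or 3 there was 1, and without ITD line 7 there were 7.

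The control lines themselves differed. Parental cells had the highest group mean for 17 of 32 members, and for 20% of all genes. Vector cells had the lowest mean for 7 of 11 genes between squalene and cholesterol (20.7% of all genes), and WT cells for 6 of 8 fatty acid genes (16%). Between WT cells with and without ligand, 0 members and 0% of all genes were called by limma over all 17 arrays, with 4 members at an unadjusted p under 0.05. A fit of the 8 control arrays alone, chosen after seeing the data, gave 0 higher and 5 lower, with 5.68% of all genes called (4.21% higher, 1.47% lower). These were Hmgcs1 at -0.51 ± 0.07 (adjusted p = 0.00598), Fdft1 at -0.48 ± 0.07, Hsd17b7 at -0.45 ± 0.09, Sqle at -0.35 ± 0.06 and Insig1 at -0.29 ± 0.07 (adjusted p = 0.043). All 8 fatty acid differences were above 0, and none was called.

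In WT compared with vector cells, 2 members were higher and 2 lower, with 8.22% of all genes called (5.5% higher, 2.71% lower). Cyp51 differed by 0.79 ± 0.21 and Fdft1 by 0.62 ± 0.18, against -0.78 ± 0.17 for Scd1 and -0.76 ± 0.15 for Scd2. Scd1 was not called without the filter on dim probe sets (adjusted p = 0.244). Without any 1 of the 4 arrays compared, 1 member was called. The fit of the 8 control arrays called 11 higher and 6 lower, with 23% of all genes called (15.4% higher, 7.59% lower). The higher ones were sterol and prenyl genes plus Insig2, and the lower ones were Dhcr7, Insig1, Fasn, Scd1, Scd2 and Fads2.

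In vector compared with parental cells, 0 members were higher and 2 lower, Fdft1 at -0.81 ± 0.18 and Srebf2 at -0.41 ± 0.10, with 2.23% of all genes called (1.27% higher, 0.959% lower). The median member difference was -0.37, against 0.03 over all genes. In 22 of 32 members both vector arrays lay below both parental arrays, as in 25.7% of all genes. Without any 1 of the 4 arrays compared, 0 members were called. Without ITD line 4, 7, 8 or 9 there were 5, 5, 4 and 7, and without either ligand array there was 1. The fit of the 8 control arrays called 1 higher (Fasn, 0.36 ± 0.06) and 18 lower, with 13.7% of all genes called (6.2% higher, 7.5% lower).

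**Figure D4:**
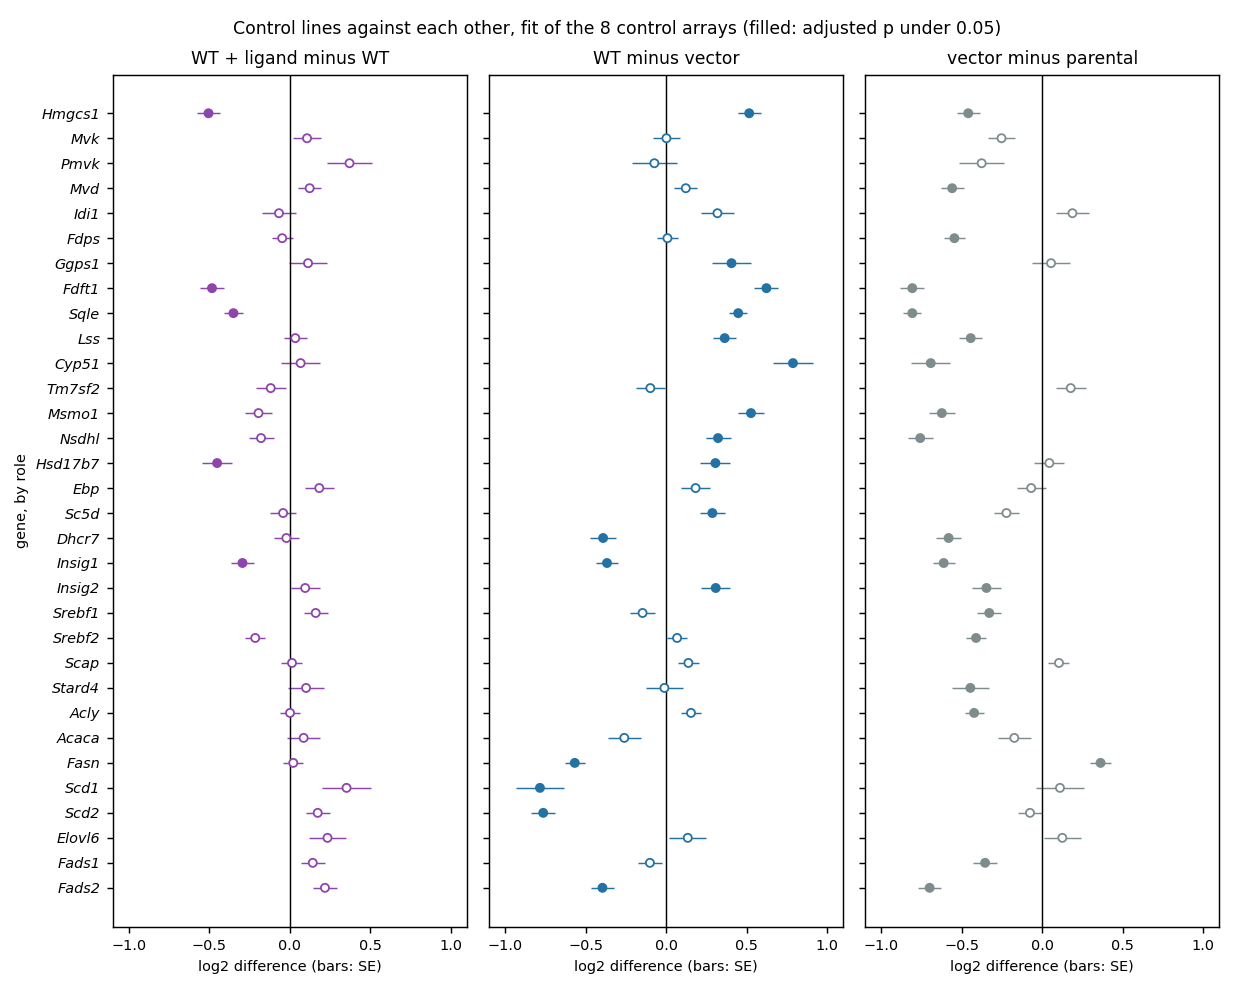
Log2 difference of each member between control lines, WT with ligand minus WT, WT minus vector and vector minus parental, from the fit of the 8 control arrays, with SE bars and filled points where called. This fit was chosen after seeing the data. The fit of all 17 arrays called 0, 4 and 2 members in these comparisons, so most filled points were not called there. Most sterol genes lie below 0 in vector minus parental and above it in WT minus vector, and the fatty acid genes Scd1 and Scd2 lie furthest below 0 in WT minus vector.

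The spread of the members over the ITD lines was close to that of other genes. The median SD over the 9 lines was 0.21 for members and 0.20 for all genes. Idi1 varied most, with an SD of 0.42 that 8.6% of genes exceeded, and Srebf2 least, with an SD of 0.07 that 98.7% exceeded. Line 9 had the highest value of 13 of 32 members, including Fdps, Sqle, Insig1 and Fasn, and of 14.2% of all genes. Line 8 was lowest for 10 members (14.3% of all genes), 6 of them between squalene and cholesterol. Line 7 was also lowest for 10 (16.8% of all genes), 6 of them fatty acid genes. With 1 array per mutant, no line was tested.

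Insig1, as a gene of the sterol-sensing loop, was set against the other 31 members over the 9 ITD lines. The r was positive for 22, with a median of 0.13, and 0 of 31 relations passed the adjustment over the 31 by Pearson's r or Spearman's rho (exact permutation tests, two-sided). By Pearson's r, 2 had an unadjusted exact p under 0.05. Ebp, a sterol isomerase, had r = 0.91 (exact p = 0.00386, adjusted p = 0.12) and rho = 0.63 (exact p = 0.076, adjusted p = 0.623). Srebf1 had r = 0.79 (exact p = 0.0109, adjusted p = 0.169) and rho = 0.73 (exact p = 0.0311, adjusted p = 0.623). Without lines 4 and 9, which lay farthest from the median of Insig1, r was 0.39 for Ebp and 0.31 for Srebf1. Leaving them out also narrows the range of Insig1. The r of Hsd17b7, named after its values were seen, was 0.73 without them and 0.02 with all 9 lines.

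**Figure D5:**
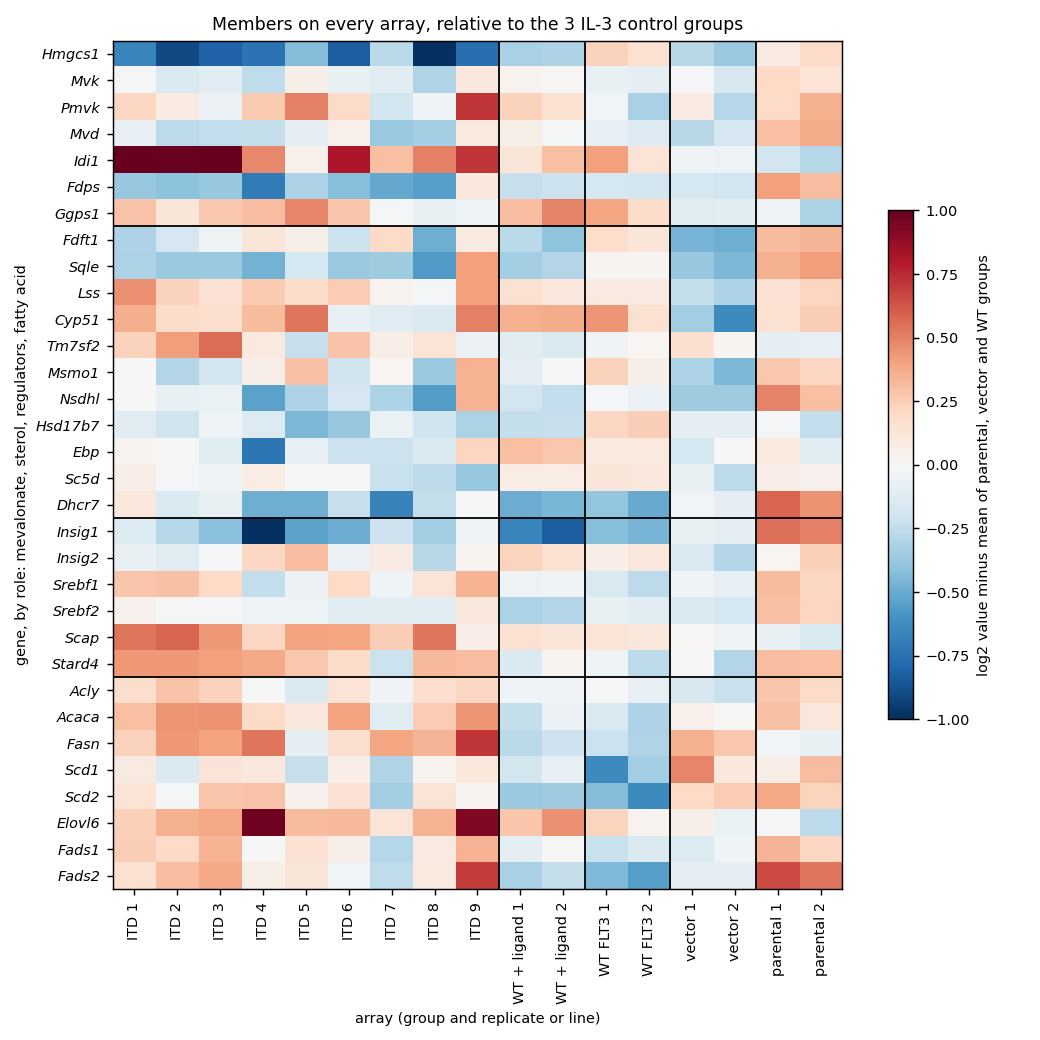
Log2 value of every member on every array minus its mean over the 6 parental, vector and WT arrays, one row per member by role and one column per array, with colours saturating at 1 either way. Idi1 and Hmgcs1 stand out with opposite colours over most ITD lines.

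Other genes of sterol and fatty acid handling were read from the same comparison of ITD lines with the mean of the 3 controls, where 19.4% of all genes were called (11.2% higher, 8.15% lower). With the 12 lines as units, far fewer calls were left in these lists, as given beside each. Among 20 measured genes of sterol uptake, storage and efflux, 3 were higher and 4 lower, with a median of -0.09, and 1 was called with the 12 lines as units. Soat2, which esterifies cholesterol, was higher (0.83 ± 0.14, adjusted p = 0.000422) and its relative Soat1 lower (-0.54 ± 0.13). The lipoprotein receptor Scarb1 was higher (0.43 ± 0.08). Soat2 was also called against vector and parental cells but not against WT, and Scarb1 against parental cells alone. Soat1 averaged 5.68 in ITD lines, 5.78 in WT, 5.92 in parental and 6.97 in vector cells. Among single control lines it was called against vector alone. Of 8 other genes listed under sterol synthesis, 1 was higher, Hsd17b12 (0.44 ± 0.06), whose product acts in fatty acid elongation. With the 12 lines as units 0 of these were called. Hsd17b12 averaged 10.28 in ITD lines and 10.27 in WT, against 9.64 in vector and 9.62 in parental cells. Of 12 genes that use isoprenoids, 3 were higher and 1 lower, among them Pdss1 (0.46 ± 0.08) and Coq2 (0.39 ± 0.05), both of coenzyme Q synthesis, and the farnesyltransferase subunit Fnta (0.28 ± 0.09). With the 12 lines as units 1 was called. Among single control lines, Pdss1 and Coq2 were called against vector and parental cells, and Fnta against parental cells alone.

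Genes of fatty acid activation, elongation and storage had 3 higher and 7 lower of 24, with a median of -0.10, and 3 calls in all with the 12 lines as units. Plin3 and Plin2, which coat lipid droplets, differed by -1.36 ± 0.12 and -0.80 ± 0.10, and Dgat1, which makes triglyceride, by -0.80 ± 0.07. Plin3 and Dgat1 were also called lower against WT, vector, parental and ligand-treated cells each on its own, at -1.73 (Plin3 against vector) to -0.47 (Dgat1 against ligand). Plin2 was called lower against vector and parental cells, but not against WT or ligand-treated cells. It averaged 8.96 in ITD lines, 9.24 in WT, 9.91 in vector and 10.12 in parental cells. Fatty acid oxidation had 1 higher and 1 lower of 15, Hadhb (0.19 ± 0.06) and Acads (-0.28 ± 0.07), with a median of -0.04. These 2 calls are 13.3% of the list, below the 19.4% of all genes. With the 12 lines as units 0 were called, and with 1 array left out 1 to 3 were, differing from 2 by over 1.5 times in 10 of 17 omissions. Among single control lines, Hadhb was called against vector alone, and Acads against vector and parental cells. Hadhb averaged 10.26 in ITD lines and 10.30 in WT, against 9.82 in vector cells.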

How the data were processed

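RNA of 17 cultures of 32D cells was measured on Affymetrix Mouse Exon arrays. The authors deposited a log2 signal for each probe set. Per the submitters' processing notes, Affymetrix Expression Console 1.1 and RMA were used, which corrects background, normalises arrays and sums up probes. The genome build of the probe sets is not given in the sources used here. The table held 1256831 probe sets (20744 at 0 on all arrays). The platform annotation gave 1 symbol to 318760, several to 6684 (left out) and none to 931387 (not analysed here). Symbols were updated through RefSeq synonyms (18006 current, 4227 changed, 63 kept). Probe sets with a mean over 4.599, the median over all probe sets, were used (237584), and a gene's value is their mean. Array medians were 4.63 to 4.69. Precision is limited by how many arrays there are.

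Group means of 20227 genes were fitted with limma 3.58.1 in R 4.3.3 (lmFit, eBayes with trend, 5 group means, 12 residual and 4.49 prior degrees of freedom), with 8 contrasts, two-sided, Benjamini-Hochberg over all genes. The code was tested on simulated data. The members and lists were chosen with earlier results of these data known. All 32 measured members were named. Arrays were given for those called in ITD minus the controls or in at least 2 other contrasts, up to 15 by the size of the largest called difference. Srebf2 also met this rule, fell outside the 15 and is given without its arrays. Up to 3 called genes a list were named among the related genes. Same-numbered arrays of control groups deviated with correlations of -0.118 to 0.0917, so numbers do not pair the samples. The closing section gives the alternatives.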

Additional observations from a re-analysis of the deposited data

Results flagged for a closer look

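Among the 9 ITD lines, 6 of the 32 members had 1 line far from the others, by Dixon's gap test at its 95% critical value, which chance flags in about 1 of 20 groups. Line 9 was high for Fdps (9.29) and for Sqle (10.73). Line 4 was low for Ebp (8.27) and for Insig1 (8.82). Line 7 was low for Stard4 (9.00) and for Scd2 (11.25). Each line had 1 array, and what sets these values apart was not tested.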

How the results depend on the processing

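No called difference changed sign under the alternatives run, but 11 members not called in ITD minus the controls did in 1 or more of them, Insig2 and Scd1 in 9 each. Of the single-gene results, 451 stayed on their side of the threshold under other settings, 76 lost a call and 9 gained one. With 1 array left out 916 stayed, 205 lost a call and 1 gained one. These results covered every measured member for ITD minus the controls, but only members already called for the other comparisons. Calls gained in those other comparisons are therefore not counted, and losses and gains cannot be weighed against each other. The members and genes called are given for each comparison, followed by the lowest and highest count with 1 array left out. For ITD minus the controls (11 members, 3917 genes; 5 to 11 members and 2675 to 4792 genes), the median of probe sets called 6 members, leaving out the vector line 2491 genes, and 12 lines as units 1 member and 466 genes. ITD minus WT had 7 members and 1559 genes (1 to 9; 281 to 2463), with 308 and 281 genes without WT replicates 1 and 2 and 2463 without ITD line 7. ITD minus vector had 6 and 2838 (0 to 7; 706 to 3720), and 2 members with the median of probe sets, 3 after quantile normalisation and 3 without the trend. It had 791 and 706 genes without vector replicates 1 and 2. ITD minus parental had 12 and 3439 (4 to 14; 1400 to 3897), with 1760 and 1400 genes without parental replicates 1 and 2. ITD minus WT with ligand had 3 and 1173 (0 to 7; 243 to 1500), and 6 members with a probe set filter at the 75th percentile, 6 after quantile normalisation and 1 without the trend. It had 243 and 245 genes without ligand replicates 1 and 2. WT with ligand minus WT had 0 and 0 (0 to 0; 0 to 4, the 4 without ITD line 5), and 1 gene after quantile normalisation. WT minus vector had 4 and 1662 (1 to 6; 456 to 2116), with 456 and 599 genes without WT replicates 1 and 2 and 516 and 503 without vector replicates 1 and 2. Vector minus parental had 2 and 451 (0 to 7; 105 to 764), with 105 and 133 genes without vector replicates 1 and 2, 149 and 126 without parental replicates 1 and 2 and 764 without ITD line 7, and 5 members with that filter, 4 after centring and 681 genes after quantile normalisation.

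With the replicate number as a block, the 3 comparisons among controls called 4 members and 864 genes (ligand), 15 and 4382 (WT minus vector) and 18 and 2418 (vector minus parental); the 8 control arrays alone called 5 and 1148, 17 and 4652, and 19 and 2773. Both fits leave out the ITD arrays' spread. Of all called genes, 29.6% were higher in ITD minus WT with ligand (45.6% after quantile normalisation), 67.0% in WT minus vector (51.3%) and 57.0% in vector minus parental (44.7% after centring, so that most calls were then lower). The cause of these changes was not tested.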

Other observations

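The difference Idi1 minus Hmgcs1, relative to its mean over the 6 parental, vector and WT arrays, was chosen after the values were seen and is given as values only. In ITD lines 1 to 9 it was 1.98, 1.89, 1.99, 1.21, 0.47, 1.63, 0.57, 1.54 and 1.47 (log2). It was 0.43 and 0.61 in WT cells with ligand, 0.18 and -0.01 in WT, 0.25 and 0.31 in vector, and -0.26 and -0.47 in parental cells. Lines 5 and 7 lay between the 2 arrays of WT cells with ligand, and the other ITD lines lay above every array of the other groups.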
